A study of Mus musculus with 288 samples.

Results

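The genes described here are 36 components of the endoplasmic reticulum (ER) secretory machinery, taken from a table of 24781 mouse genes. They are a list of named genes grouped by what they do, and no threshold on their values sets membership. All 36 had a row in the table and at least 1 count. They fall into 6 lumenal chaperones, 4 protein disulfide isomerases, 7 stress-response factors, 9 genes of targeting and the translocon, 3 signal peptidase subunits, 5 genes of the oligosaccharyltransferase and 2 retrieval receptors.

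The study sequenced RNA from 286 wells, each titled as a single cell, and from 2 negative control wells. The cells came from lungs of 4-month-old C57BL/6 mice carrying Scgb1a1-CreER, a drug-inducible recombinase driven by the promoter of Scgb1a1, the secretoglobin that club cells release, together with the Rosa26-mTmG reporter. All sorted cells passed the same gate: lineage-positive, Epcam+, CD45-, CD31- and CD24low. No label ties a well to an animal or names a second condition, so the wells of each class below count as 1 pooled sample, and no difference was tested.

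Wells were kept when their total exceeded 2340 counts, which is 10 times the higher negative control, and 227 of 286 passed. They were divided by their own counts: 63 wells in which Sftpc, the surfactant protein C gene of alveolar type 2 cells, reached 1% of the total (Sftpc wells), 74 wells in which Scgb3a1, a secretoglobin, reached 1% (Scgb3a1 wells), and 90 other wells. No well met both limits. These classes are ranges of a measured value and not groups named by the study. The Sftpc share ran from 2.07% to 24.7% within Sftpc wells and stayed at or below 0.734% in the other wells. The Scgb3a1 share ran from 1.01% to 10.7% within Scgb3a1 wells and reached 0.876% in the other wells, close to the limit.

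Depth differed between the classes. The median well total was 3529 counts in Sftpc wells (range 2384 to 8806), 6940.5 in Scgb3a1 wells (3376 to 15088) and 5406 in other wells (2419 to 9718). Scgb1a1, Sftpc and the ribosomal RNA gene Rn45s together took 31.5%, 31.6% and 39.7% of the pooled counts, so levels are given in CPM (counts per 1000000 counts) of all genes and, where it matters, of the totals without these 3 genes. Against other wells, leaving out these genes lowers every log2 ratio by 0.18. The classes were also spread unevenly over the successive sets of 96 columns of the table: 40 of 63 Sftpc wells, 5 of 74 Scgb3a1 wells and 19 of 90 other wells lay in the last set. Summed alveolar type 2 markers were 211508 CPM in Sftpc wells, 6653 in Scgb3a1 wells and 11806 in other wells. That list holds Sftpc, which sets the class and alone took 15.2% of the pooled counts of Sftpc wells. The sum is therefore not independent of the class limit. Summed club markers, which include Scgb1a1, were 59690, 306014 and 382498 CPM.

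Secreted and membrane proteins enter the ER through the Sec61 channel, guided by the signal recognition particle. There the signal peptidase removes the leader peptide, the oligosaccharyltransferase attaches N-linked sugars, and chaperones and disulfide isomerases fold the chain. When unfolded protein accumulates, the sensors IRE1, PERK and ATF6 raise the capacity for folding through XBP1, ATF4 and cleaved ATF6. Club cells and alveolar type 2 cells both secrete: the former release secretoglobins, the latter surfactant proteins and lipid.

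The ER stress response element (ERSE) is the promoter sequence through which ATF6 and XBP1 act with the CCAAT-binding factor NF-Y. It was searched for as CCAAT, then any 9 bases, then CCACG, on both strands of the 250 bases before each RefSeq start. Of the 36 members, 30 had a promoter entry, and 6 of these held the element: Hspa5, Hsp90b1, Calr, Canx, Pdia6 and Creld2. Over all mouse promoters of the same length it was present in 37 of 32851, or 0.113%. Counted by gene, as the members are, it was present in 35 of 27025, or 0.130%. The related element ERSE-II, ATTGG, then any 1 base, then CCACG, was found in Herpud1, against 0.0304% of promoters and 0.0370% of genes. The sites are shown because they are what these 7 members share beyond their place in the ER. They are from RefSeq on GRCm38.p6, on the strand of the gene, with the CCAAT and CCACG parts, or their complements, in capitals.
Hspa5 (chr2:34772020-34772048, plus strand): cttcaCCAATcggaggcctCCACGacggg
Canx (chr11:50325795-50325823, minus strand): attgaCCAATcaccacgctCCACGaagaa
Pdia6 (chr12:17266486-17266514, plus strand): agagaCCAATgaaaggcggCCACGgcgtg
Calr (chr8:84847070-84847098, minus strand): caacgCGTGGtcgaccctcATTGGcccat
Creld2 (chr15:88819515-88819543, plus strand): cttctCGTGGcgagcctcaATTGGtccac
Herpud1 (chr8:94386372-94386392, plus strand): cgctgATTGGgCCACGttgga
Hsp90b1 (chr10:86705510-86705694, minus strand): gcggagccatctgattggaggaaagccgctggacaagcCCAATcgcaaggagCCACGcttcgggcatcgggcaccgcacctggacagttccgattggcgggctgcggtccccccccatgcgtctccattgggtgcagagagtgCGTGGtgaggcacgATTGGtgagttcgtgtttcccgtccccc

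The Hsp90b1 stretch holds 2 elements in opposite orientations. The element points the same way as the gene in Hspa5, Canx and Pdia6 and the opposite way in Calr and Creld2. The bare core CCACG, which also lies inside every ERSE and ERSE-II, was found in 17 of the 30 members. It was found in 28.3% of all promoters and 31.0% of all genes. The sequence TGACGTGG was found in none of the 30, in 0.563% of promoters and in 0.603% of genes. A match is a description of the sequence and was not tested as a binding site.

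Transcripts of the 36 genes made up a similar share of the RNA in all 3 classes. Their summed level was 5867 CPM in Sftpc wells (95% Poisson interval 5565 to 6181, from 1412 counts), 6458 CPM in Scgb3a1 wells (6240 to 6681, 3314 counts) and 5704 CPM in other wells (5498 to 5916, 2882 counts). Per well, the lowest, median and highest sums were 2455, 5531 and 12757 CPM in Sftpc wells. They were 2370, 6227 and 15653 CPM in Scgb3a1 wells and 2256, 5494 and 10336 CPM in other wells. The 3 ranges overlapped over most of their length, and every kept well had counts from the list. The standard deviation between wells was 2064, 1961 and 1632 CPM, larger than any difference between the medians.

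The ratio of the pooled sums was 1.03 for Sftpc wells against other wells (95% exact interval 0.964 to 1.10), 1.13 for Scgb3a1 wells against other wells (1.08 to 1.19) and 0.908 for Sftpc wells against Scgb3a1 wells (0.853 to 0.967). The first and second of these share the other wells. On totals without Scgb1a1, Sftpc and Rn45s the 3 ratios were 0.905, 0.999 and 0.906, so the direction of the first, and the excess of the second, rested on the denominator. With edgeR's trimmed-mean (TMM) scaling factors they were 0.825, 1.18 and 0.700. The counting intervals assume that counts are independent molecules. The variance of the list sum between wells was 2.61, 3.79 and 2.47 times what counting alone gives, so the true uncertainty is wider.

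**Figure D1:**
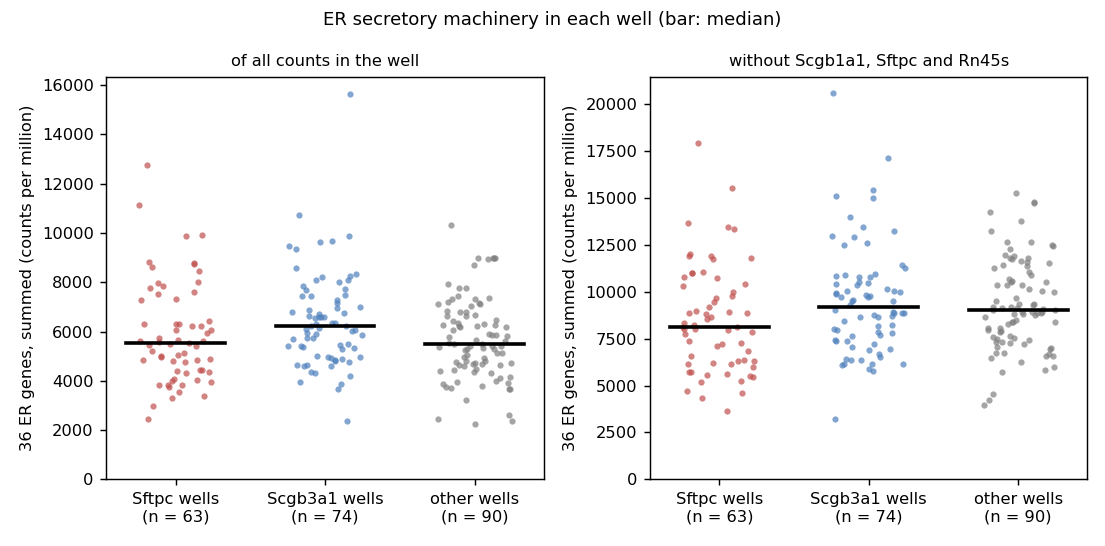
Summed level of the 36 ER genes in each well, in CPM of all genes and of the totals without Scgb1a1, Sftpc and Rn45s, for 63 Sftpc wells, 74 Scgb3a1 wells and 90 other wells. Each point is a well and the bar is the median; the classes overlap, with medians of 5531, 6227 and 5494 CPM on totals of all genes.

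By single genes the list moved little. A member was counted as higher or lower when its pooled CPM differed at least 2-fold between classes and it had at least 20 counts in them together. In each comparison 33 members reached that minimum. Sdf2l1, an ER cofactor of the chaperone cycle, had 5, 9 and 6 counts in Sftpc, Scgb3a1 and other wells. Ddit3, which encodes the stress factor CHOP, had 6, 4 and 8 counts. Trib3, a pseudokinase induced by stress, had 1, 0 and 4 counts. None of these 3 had enough counts in any pair of classes for a ratio.

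Between Sftpc wells and other wells, 1 of 33 members was at least 2-fold higher (Dnajb9) and 0 were lower. Of all 3854 genes with 20 counts, 17.4% were higher and 9.68% lower. Between Scgb3a1 wells and other wells, 0 of 33 members passed in either direction, beside 8.13% of 4536 genes higher and 9.24% lower. Between Sftpc wells and Scgb3a1 wells, 1 was higher (Dnajb9) and 1 lower (Kdelr1), beside 19.7% and 13.2% of 3834 genes. On totals without the 3 genes the members' counts were the same, beside 13.6% of genes higher and 12% lower in the first comparison, 6.53% and 12.8% in the second, and 19.7% and 13.2% in the last.

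TMM factors shift every log2 ratio by -0.32, 0.06 and -0.38 in these comparisons. With them 1 member was higher (Dnajb9) and 2 lower (Pdia4 and Srp9) in the first, beside 11.5% and 14.6% of genes. In the second 0 members passed, beside 9.24% and 8.09%. In the last 0 were higher and 7 lower, beside 12.8% and 19.9%: Kdelr1, Kdelr2, Xbp1, Srp9, Pdia3, Manf and Spcs3. These comparisons have no replicate, so the counts describe these wells.

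On totals of all genes the members' ratios were also closer to 1 than those of genes at large. The median absolute log2 ratio was 0.36 for members and 0.55 for all genes between Sftpc and other wells, 0.20 and 0.42 between Scgb3a1 and other wells, and 0.32 and 0.64 between Sftpc and Scgb3a1 wells. With a minimum of 100 counts these pairs were 0.23 and 0.44, 0.21 and 0.30, and 0.29 and 0.51. The medians were not computed with TMM factors. With those factors 7 of 33 members were lower between Sftpc and Scgb3a1 wells, beside 19.9% of genes. With a minimum of 100 counts, which leaves 14, 22 and 18 members, 0 members passed in any comparison, beside 25.2%, 13.5% and 30.6% of all genes in either direction. Between Sftpc and other wells 16 members lay above a ratio of 1 and 17 below, beside 60.1% of all genes above, and 12 and 21 on totals without the 3 genes, beside 49.8%. Between Scgb3a1 and other wells 24 lay above and 9 below, beside 46.8%, but 15 and 18 on totals without the 3 genes, beside 36.5%. Between Sftpc and Scgb3a1 wells 13 lay above and 20 below on either total, beside 59.7% and 59.6%. The median log2 ratio there was -0.24 for members and 0.20 for all genes.

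**Figure D2:**
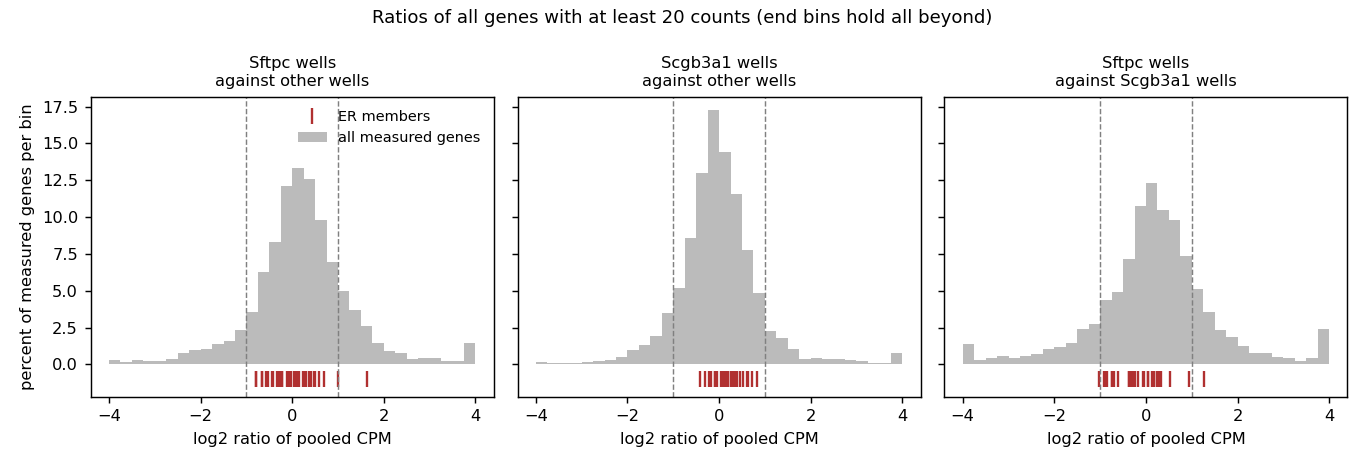
Distribution of log2 ratios of pooled CPM for all genes with at least 20 counts in each of the 3 comparisons, as percent of genes per bin, with the 33 measured ER members as ticks under it. The members sit near 0, between -1.02 and 1.63 over the 3 comparisons, while the genes at large spread farther to both sides.

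Among the lumenal chaperones the abundant members were held at close to the same level. Hspa5, the Hsp70 of the ER known as BiP, stood at 602 CPM in Sftpc wells (508 to 709), 588 in Scgb3a1 wells (524 to 659) and 513 in other wells (452 to 579). Its medians per well were 556, 521 and 448 CPM, its highest wells 2228, 1962 and 1518 CPM, and wells at 0 occurred in each class. Calr, calreticulin, which binds newly glycosylated chains, stood at 602 CPM (508 to 709), 768 (694 to 847) and 701 (629 to 778). Its median wells were at 434, 711 and 603 CPM, and the highest reached 2609, 3359 and 3180 CPM. Hsp90b1, the Hsp90 of the ER, was at 399, 322 and 370 CPM, and Canx, the membrane-bound partner of calreticulin, at 183, 230 and 212 CPM. On totals of all genes the ratios between classes for these 4 genes stayed well inside 2-fold. Over the alternatives, those between Sftpc and Scgb3a1 wells ran down to 0.507 for Calr and to 0.468, past 2-fold, for Canx.

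Dnajb9 departed from this pattern. It encodes ERdj4, a J-domain cochaperone of BiP that acts on IRE1 and in degradation from the ER, and lies at chr12:44205559-44210326. Its level was 104 CPM in Sftpc wells (67.2 to 153, 25 counts), 42.9 CPM in Scgb3a1 wells (26.9 to 64.9, 22 counts) and 33.6 CPM in other wells (19.6 to 53.9, 17 counts). The median well was at 0 in every class, and the highest wells held 1023, 254 and 401 CPM, or 4, 2 and 3 counts. The ratio was 3.09 for Sftpc against other wells (1.60 to 6.09) and 2.42 for Sftpc against Scgb3a1 wells (1.31 to 4.51).

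Dnajb9 had a count in 30.2% of Sftpc wells, 28.4% of Scgb3a1 wells and 15.6% of other wells. When each well was thinned to 3151 counts, leaving out 23 shallower wells, these shares were 27.3% of 44, 8.11% of 74 and 8.14% of 86 (exact binomial intervals 15.0 to 42.8%, 3.03 to 16.8% and 3.34 to 16.0%). By column set Dnajb9 was at 119, 74.1 and 115 CPM in Sftpc wells, 50.6, 39.9 and 0 in Scgb3a1 wells and 25.0, 49.9 and 11.8 in other wells. Sftpc wells had the highest observed value in each set, but from 4, 5 and 16 counts, beside 5, 11 and 1 in other wells. The 0 of Scgb3a1 wells in the last set comes from 5 wells, where 3 counts would be 117 CPM, and so sets no order there. With TMM factors the ratio stayed past 2-fold against other wells, at 2.48, but fell short against Scgb3a1 wells, at 1.87. These values rest on 64 counts in all.

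The promoter window of Dnajb9 held no full ERSE or ERSE-II. It held CCACG cores at 2 positions, shown with 10 bases on each side, core in capitals, to set beside the full elements above. Both lie inside the GENCODE span of the gene given above, as the Hspa5 element does. The elements of the other 6 members lie outside theirs. Of 31 member windows, which run past the RefSeq start, 28 had their last 40 bases inside a GENCODE transcript.
Dnajb9 upstream core (chr12:44210162-44210186, minus strand): caacagttttCCACGtgcgcgtagg
Dnajb9 downstream core (chr12:44210069-44210093, minus strand): gtcgcgccagCCACGggctcccgcc

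The 7 members with an ERSE or ERSE-II, which do not include Dnajb9, were level between classes as a group. Their summed ratio was 1.04 between Sftpc and other wells (0.940 to 1.16), 1.07 between Scgb3a1 and other wells (0.985 to 1.16) and 0.975 between Sftpc and Scgb3a1 wells (0.879 to 1.08). The 23 other members with a promoter entry gave 1.04, 1.17 and 0.888.

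The protein disulfide isomerases, which form and rearrange disulfide bonds, were summed at 839, 1027 and 901 CPM in Sftpc, Scgb3a1 and other wells. P4hb, which encodes the archetypal isomerase PDI, gave most of this: 548 CPM (459 to 650), 713 (642 to 790) and 594 (528 to 665), with median wells at 491, 686 and 526 CPM. Pdia6 stood at 204, 181 and 164 CPM. Pdia3, the isomerase that works with calnexin and calreticulin, was at 54.0, 89.6 and 85.1 CPM, and Pdia4 at 33.2, 42.9 and 57.4 CPM. Between Sftpc and Scgb3a1 wells the summed ratio was 0.817 (0.691 to 0.963), with Pdia6 the only member of the 4 above 1. That ratio was 0.815 on totals without the 3 genes and 0.630 with TMM factors.

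The stress-response factors came to 831 CPM in Sftpc wells, 933 in Scgb3a1 wells and 691 in other wells. The ratio of Scgb3a1 to other wells was 1.35 (1.17 to 1.56), and 1.19 on totals without the 3 genes. That of Sftpc to other wells was 1.20 (1.01 to 1.44), but 1.06 on totals without the 3 genes and 0.965 with TMM factors. On totals of all genes all 5 measured members lay above 1 between Scgb3a1 and other wells, none of them 2-fold, beside 46.8% of all genes. On totals without the 3 genes 3 lay above 1 and 2 below, beside 36.5% of all genes above.

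Xbp1, the transcription factor spliced by IRE1 and needed by professional secretory cells, stood at 112 CPM in Sftpc wells (73.9 to 163), 210 in Scgb3a1 wells (173 to 254) and 119 in other wells (90.6 to 153). The median well was at 0, 192 and 0 CPM, and the highest at 839, 716 and 620 CPM. Scgb3a1 wells were the only class in which most wells held a count, 75.7% against 34.9% and 45.6%, and at equal depth the shares were 48.6%, 31.8% and 33.7%. The ratio was 1.77 between Scgb3a1 and other wells (1.28 to 2.47; 1.56 on totals without the 3 genes) and 0.533 between Sftpc and Scgb3a1 wells (0.336 to 0.819). The latter passed 2-fold, at 0.411, with TMM factors. By column set Xbp1 was at 29.8, 119 and 129 CPM in Sftpc wells and at 245, 188 and 117 CPM in Scgb3a1 wells. The order turned in the last set, where the Scgb3a1 value is 3 counts from 5 wells. In the first set the Sftpc value is 1 count from 6 wells. Over 14 alternatives the ratio of Sftpc to Scgb3a1 wells ran from 0.122, in the first set, to 1.10, in the last. A count table per gene does not separate spliced from unspliced Xbp1.

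Atf4, the factor whose translation PERK signalling favours, was at 353 CPM in Sftpc wells (282 to 437), 364 in Scgb3a1 wells (314 to 421) and 236 in other wells (195 to 282). Its ratio between Scgb3a1 and other wells was 1.55 (1.22 to 1.96), or 1.36 on totals without the 3 genes. Herpud1, an ER membrane protein of the degradation complex, stood at 204, 168 and 154 CPM. Manf, a secreted ER-stress factor, was at 91.4, 148 and 133 CPM, and Creld2, a stress-induced ER protein, at 41.5, 35.1 and 25.7 CPM. Manf was lowest in Sftpc wells, whereas Herpud1 and Creld2 were highest there, each within 2-fold.

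Goblet cell markers moved with the Scgb3a1 class. The 6 genes of that list, Muc5b, Muc5ac, Spdef, Agr2, Tff2 and Fcgbp, summed to 24.9 CPM in Sftpc wells, 5300 in Scgb3a1 wells and 143 in other wells. Per well they ran from 207 to 13642 CPM in Scgb3a1 wells and from 0 to 4034 CPM in other wells. None of the 6 was at 0 over all kept wells, and Muc5ac was counted in Scgb3a1 wells only, with 17 counts. The part of this in the levels of Xbp1 and Atf4 was not tested.

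Markers of immune, endothelial, mesenchymal and erythroid cells were low. Jchain and Cd79a of the plasma and B cell list, Ptprc of the immune list and Pecam1 of the endothelial list had 0 counts in all kept wells, where 3 counts would be 2.38 CPM. The plasma and B cell list summed to 24.9, 0 and 13.9 CPM in Sftpc, Scgb3a1 and other wells, the other immune list to 4.16, 1.95 and 9.90, the endothelial list to 12.5, 3.90 and 29.7, the mesenchymal list to 8.31, 3.90 and 0, and the erythroid list to 8.31, 0 and 11.9. Markers of other epithelial cells reached higher levels. Alveolar type 1 markers summed to 1413, 518 and 546 CPM, mainly Ager in Sftpc wells. Basal markers summed to 4.16, 210 and 15.8 CPM, nearly all Krt15, with Krt5 and Krt14 at 0. Ciliated markers summed to 70.6, 89.6 and 336 CPM, and 1, 1 and 8 wells had at least 3 ciliated counts. No caller for doublets was run.

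Genes of targeting and the translocon were summed at 1188, 1251 and 1211 CPM in Sftpc, Scgb3a1 and other wells, the most even of the 7 roles across the classes on totals of all genes. Sec61g, the small gamma subunit of the channel, stood at 241 CPM (183 to 311), 298 (253 to 349) and 249 (208 to 297), with median wells at 196, 309 and 229 CPM. Sec61b, the beta subunit, was at 158, 179 and 210 CPM, and Sec61a1, the pore itself, at 166, 148 and 156 CPM. Srp9 and Srp14, which form the Alu-domain dimer of the signal recognition particle, were at 45.7, 83.8 and 79.2 CPM and at 58.2, 70.2 and 87.1 CPM.

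The 4 subunits of the translocon-associated protein complex did not keep to a single order. Ssr1, its alpha subunit (chr13:37966605-37994217), was at 158 CPM in Sftpc wells (112 to 217), 81.8 in Scgb3a1 wells (59.0 to 111) and 79.2 in other wells (56.6 to 108). The ratio of Sftpc to other wells, 1.99 (1.25 to 3.19), fell just short of 2-fold. It was 1.76 on totals without the 3 genes and 1.60 with TMM factors, and it ran from 1.34 to 2.78 over 13 alternatives, 5 of them past 2-fold. Ssr2 was at 125, 121 and 127 CPM and Ssr3 at 129, 103 and 91.0 CPM. Ssr4 was at 108, 166 and 133 CPM, lowest where Ssr1 was highest. Ssr1 had a count in 38.6% of Sftpc wells at equal depth and in 21.6% and 18.6% of the other 2 classes, with intervals that overlap.

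The signal peptidase subunits summed to 253, 300 and 228 CPM. Spcs2 gave most of the higher value in Scgb3a1 wells. It stood at 141 CPM (97.8 to 197), 175 (141 to 216) and 107 (80.3 to 139), a ratio of 1.64 between Scgb3a1 and other wells (1.16 to 2.34; 1.45 on totals without the 3 genes). Spcs1 was level at 83.1, 76.0 and 81.1 CPM, and Spcs3 was at 29.1, 48.7 and 39.6 CPM. The oligosaccharyltransferase genes summed to 686, 680 and 614 CPM. Dad1 was at 158, 166 and 188 CPM, Rpn1 at 145, 171 and 131 CPM, Rpn2 at 158, 133 and 123 CPM, Ddost at 129, 89.6 and 93.0 CPM, and Ostc at 95.6, 121 and 79.2 CPM. No subunit of either enzyme reached 2-fold in any comparison on totals of all genes or on totals without the 3 genes. With TMM factors Spcs3 was past it between Sftpc and Scgb3a1 wells, at 0.460. Spcs1, Spcs2 and Rpn1 passed it under other alternatives.

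**Figure D3:**
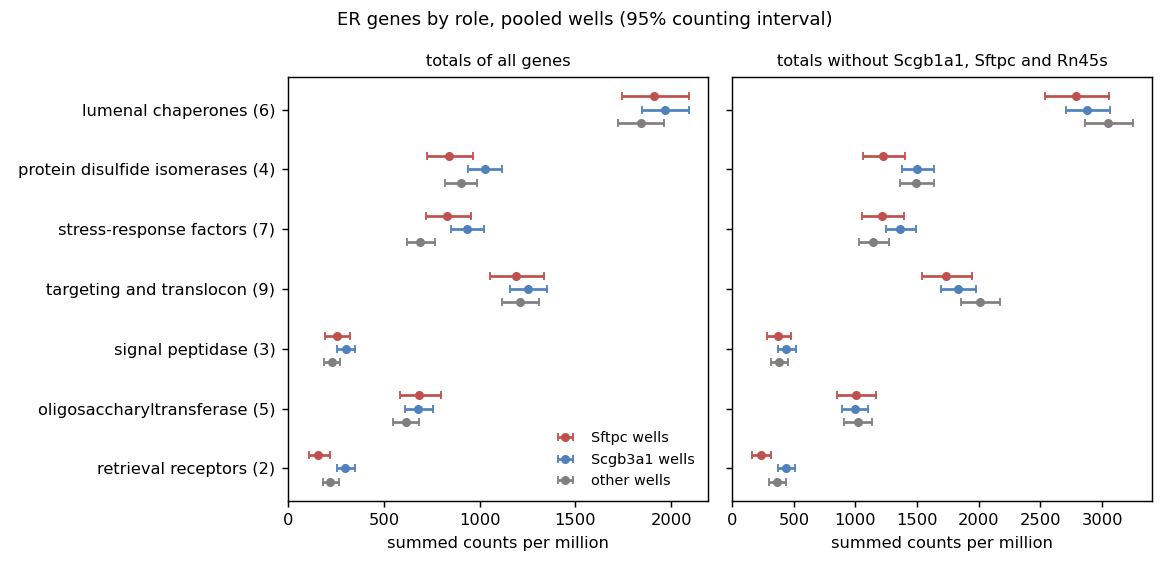
Summed pooled CPM of each of the 7 roles in Sftpc, Scgb3a1 and other wells, with 95% Poisson intervals for counting error and the number of genes in brackets, on totals of all genes and on totals without Scgb1a1, Sftpc and Rn45s. The intervals of each role overlap between classes except for retrieval receptors between Sftpc and Scgb3a1 wells and, on totals of all genes, stress-response factors between Scgb3a1 and other wells.

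The retrieval receptors stood apart from the other roles. Kdelr1 and Kdelr2 bind escaped chaperones in the Golgi by their KDEL tail and return them to the ER. Together they were at 158 CPM in Sftpc wells, 298 in Scgb3a1 wells and 220 in other wells. The ratio of Sftpc to Scgb3a1 wells was 0.530 (0.361 to 0.760), 0.528 on totals without the 3 genes and 0.408 with TMM factors. That of Scgb3a1 to other wells was 1.36 (1.06 to 1.75), and 1.20 on totals without the 3 genes.

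Kdelr1 (chr7:45872772-45883732) was at 66.5 CPM in Sftpc wells (38.0 to 108, 16 counts), 134 in Scgb3a1 wells (105 to 170, 69 counts) and 105 in other wells (78.6 to 137, 53 counts). The median well was at 0, 124 and 0 CPM and the highest at 1050, 594 and 550 CPM, or 3, 5 and 2 counts. The class with the lowest level thus held the highest single well in CPM, but not in counts. A count was present in 20.6%, 54.1% and 42.2% of wells, and at equal depth in 18.2%, 36.5% and 27.9%. Its ratio between Sftpc and Scgb3a1 wells, 0.494 (0.268 to 0.861), just passed the 2-fold limit; it was 0.524 without the single well of most Kdelr1 counts in these classes, a Scgb3a1 well with 5. Kdelr2 fell short of it at 91.4, 164 and 115 CPM, with a ratio of 0.558 (0.332 to 0.902). By column set Kdelr1 was at 59.6, 74.1 and 64.5 CPM in Sftpc wells and at 105, 156 and 195 CPM in Scgb3a1 wells, lower in Sftpc wells in each set. The last value rests on 5 wells, and the Sftpc values rest on 2, 5 and 9 counts. Sftpc wells were the shallowest class, and the part of depth in this difference was not tested.

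**Figure D4:**
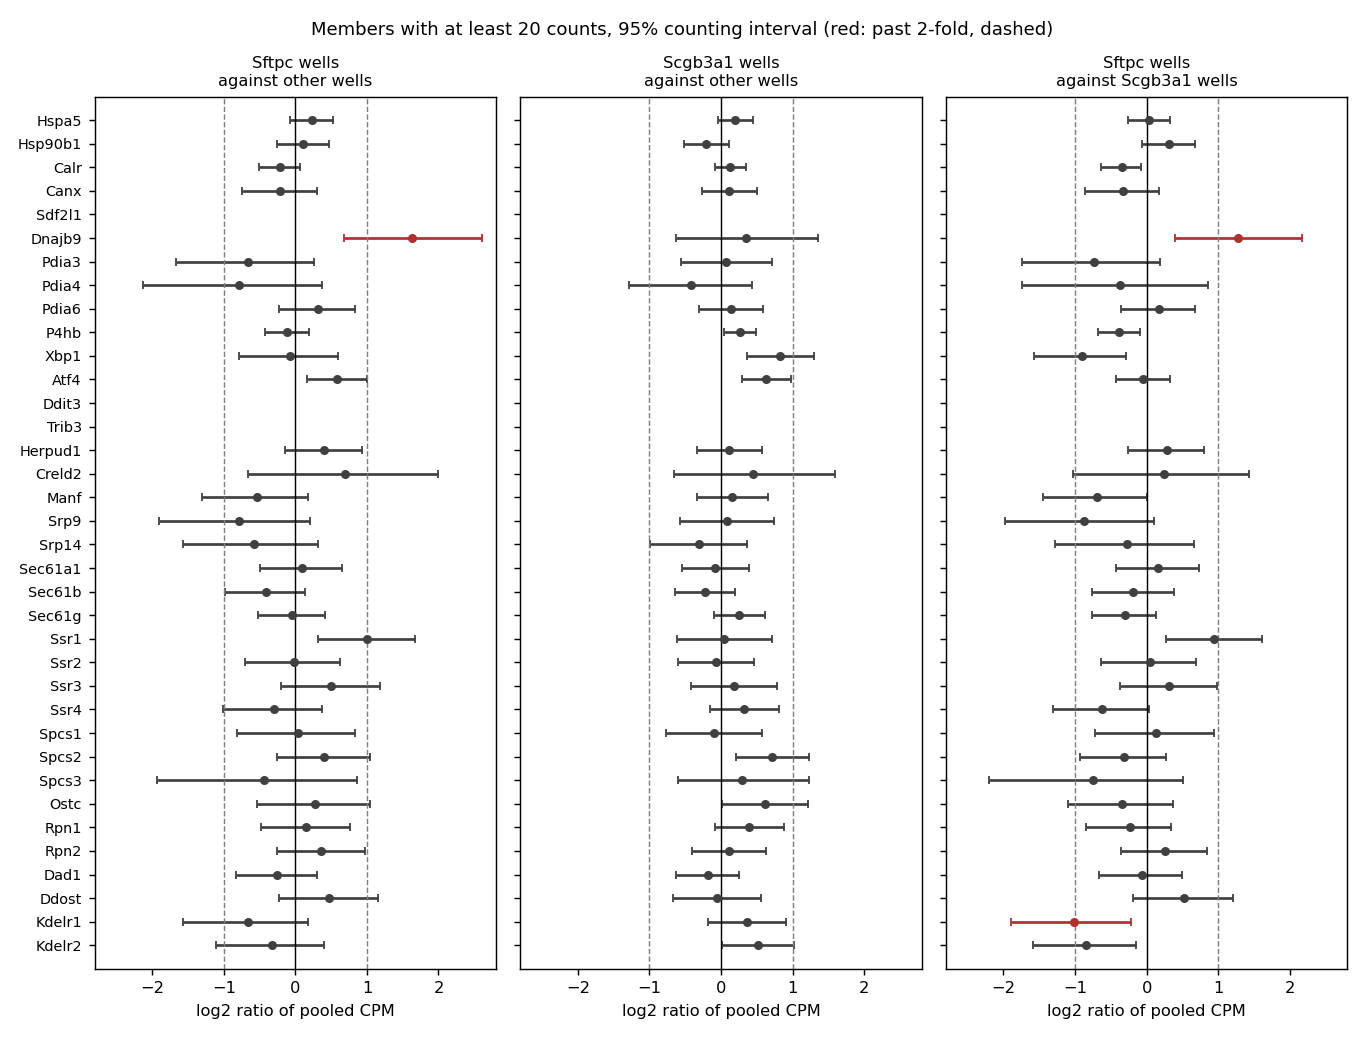
Log2 ratio of pooled CPM for the 33 members with at least 20 counts in each of the 3 comparisons, with 95% exact intervals for counting error and dashed lines at 2-fold. Dnajb9 passes the upper line in both comparisons of Sftpc wells and Kdelr1 passes the lower line against Scgb3a1 wells; the other members lie between the lines.

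The column sets bore on the list as a whole. In the first set the summed level was 5543 CPM in 6 Sftpc wells, 6721 in 38 Scgb3a1 wells and 5591 in 38 other wells. In the middle set it was 5052 CPM in 17 Sftpc wells, 6303 in 31 Scgb3a1 wells and 5527 in 33 other wells. In the last set it was 6339 CPM in 40 Sftpc wells, 5529 in 5 Scgb3a1 wells and 6427 in 19 other wells. On these totals of all genes Scgb3a1 wells were the highest class in the first and middle sets and the lowest in the last, where only 5 of them lay. The ratio of Scgb3a1 to other wells was 1.20, 1.14 and 0.860 in the 3 sets, and that of Sftpc to Scgb3a1 wells 0.825, 0.801 and 1.15. On totals without Scgb1a1, Sftpc and Rn45s, Scgb3a1 wells were at 9851, 9216 and 7947 CPM in the 3 sets. Other wells were at 9616, 9526 and 9004 CPM and Sftpc wells at 8718, 7355 and 9100 CPM. Other wells were thus highest in the middle set and Sftpc wells in the last. What the sets stand for is not given in the sources used here.

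**Figure D5:**
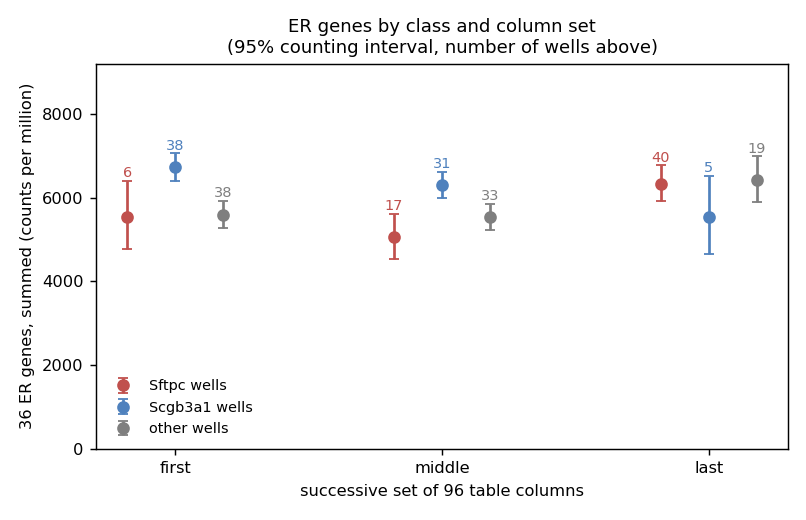
Summed CPM of the 36 ER genes by class within each successive set of 96 table columns, with 95% Poisson intervals for counting error and the number of wells above each point. On totals of all genes, which are drawn, Scgb3a1 wells stand highest in the first and middle sets, at 6721 and 6303 CPM, and lowest in the last, at 5529 CPM from 5 wells.

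Within a class, wells differed in the list sum more than counting alone would give. For single genes the ratio of observed variance to that expected from counting had a median of 1.17 over 26 members in Sftpc wells, 1.14 over 32 in Scgb3a1 wells and 1.17 over 31 in other wells, beside 1.16, 1.12 and 1.16 over all genes. It exceeded 1.5 in 3, 6 and 2 of these members, beside 19.1%, 13.4% and 17.4% of all genes. Calr had the highest such ratio of the members in each class, at 1.76, 2.73 and 2.23. At a given relative spread this ratio grows with the number of counts, and Calr had the most of any member, 893.

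The well with the highest list level, a Scgb3a1 well of 6133 counts, held 96 counts from 27 members. They included 12 of Hspa5, 12 of Calr and 10 of P4hb. The highest Sftpc well had 44 counts in 3449, led by 9 of Calr, and the highest other well 52 in 5031, led by 16 of Calr. A median of 12 members was detected per Sftpc well, 20 per Scgb3a1 well and 16 per other well. At equal depth these medians were 11.5, 12.5 and 11. Across wells, the summed CPM of chaperones and isomerases and that of translocation, signal peptidase and glycosylation genes correlated with Pearson r of 0.39 in 63 Sftpc wells, 0.50 in 74 Scgb3a1 wells and 0.16 in 90 other wells, or 0.32, 0.43 and 0.23 without the 2 most distant wells. Both sums were taken on well totals without Scgb1a1, Sftpc and Rn45s and share that denominator, so these are descriptions. The list level on the same shortened totals and the Scgb1a1 share of all counts gave r of 0.05, 0.27 and 0.12. Leaving Scgb1a1 out of the denominator raises the list level as its share rises, so these values depend on that choice.

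Other genes of the same pathways were counted in 7 lists. Beside the first counts below, 17.4% of all 3854 genes were higher and 9.68% lower between Sftpc and other wells. On totals without the 3 genes these shares were 13.6% and 12%. Of the other folding factors, 2 of 13 measured genes were higher in Sftpc than in other wells and 0 lower. The larger difference was in P4ha1, the catalytic subunit of collagen prolyl 4-hydroxylase, with 43 counts in Sftpc wells, 14 in Scgb3a1 wells and 12 in other wells, a ratio of 7.52 (3.90 to 15.7) against other wells. P4hb, its partner subunit and a member, had a ratio below 1 in the same comparison. Dnajc10, a reductase of the ER, was at 2.45 (1.05 to 5.80), and at 1.96 with TMM factors. Of 16 other translocation and signal peptidase genes 0 were higher and 1 lower, of 10 N-glycosylation genes 1 and 1, of 6 unfolded protein response genes 1 and 0, of 11 genes of ER-associated degradation 0 and 1, of 16 genes of COPII export 1 and 0, and of 9 genes of COPI retrieval 1 and 0. The gene of the response list was Creb3l1, an ER-bound transcription factor, at 2.70 (1.47 to 5.02). The gene lower in the degradation list was Edem2, a mannosidase-like factor, at 0.280 (0.0716 to 0.794) from 4 and 30 counts. On totals without the 3 genes these counts of higher and lower genes became 0 and 2 for translocation, 0 and 1 for N-glycosylation, 1 and 1 for the response and 0 and 1 for COPI, and the other 3 lists were the same.

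Between Scgb3a1 and other wells, 1 of 14 other folding factors was higher and 1 of 20 translocation genes was higher and 1 lower. In the remaining 5 lists 0 of 12, 8, 14, 19 and 9 genes passed. Of all 4536 genes, 8.13% were higher and 9.24% lower, or 6.53% and 12.8% on totals without the 3 genes. The higher translocation gene was Sec11c, a catalytic subunit of the signal peptidase, at 53 against 24 counts and a ratio of 2.17 (1.32 to 3.68), or 1.92 on totals without the 3 genes. On those totals 0 folding factors passed, 0 translocation genes were higher and 2 lower, and 1 gene each of the N-glycosylation and COPII lists was lower. Ern2, the IRE1 isoform of mucous epithelium, had 7 counts, all in Scgb3a1 wells. Ern1, which encodes the common IRE1, Chac1 and Bhlha15 had 0 counts in all kept wells.

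Between Sftpc and Scgb3a1 wells, 3 of 13 other folding factors were higher and 1 lower, and 1 of 17 translocation genes was higher and 3 lower. Beside these and the counts that follow, 19.7% of all 3834 genes were higher and 13.2% lower. Of 11 N-glycosylation genes 0 passed in either direction. On totals without the 3 genes the counts of all 7 lists in this comparison were the same. Of 7 response genes 0 were higher and 1 lower, of 13 degradation genes 0 and 1, of 18 COPII genes 1 and 1, and of 9 COPI genes 0 and 1. Sec11c was at 0.443 (0.208 to 0.857) and Srprb, the membrane anchor of the receptor for the signal recognition particle, at 0.355 (0.108 to 0.925). Arf4, a GTPase of the early secretory route, was at 0.434 (0.289 to 0.635), lower in Sftpc wells as the KDEL receptors were. Mcfd2, a cofactor of cargo export, was at 3.20 (1.55 to 6.80) in the opposite direction.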

How the data were processed

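Per the labels' protocols, spike-in RNA was added, RNA was fragmented by heat, and cDNA was primed with a barcoded poly(T) primer, made by template switching and amplified. The authors deposited unnormalised read counts, genes in rows and wells in columns; per the submitters' processing notes STAR and mm10 were used. Annotation, counter, strand handling and barcode collapsing were not given in the sources read. If barcodes were not collapsed, the intervals are too narrow. No 2 wells had identical counts. The members, lists and classes were chosen with earlier results of these data known.

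Counts were summed by class (240677 in Sftpc wells, 513183 in Scgb3a1 wells, 505258 in other wells) and given as CPM with exact Poisson 95% intervals. Ratios have exact conditional binomial (Clopper-Pearson) intervals. Both cover counting error only, between wells pooled without animal labels. A member with 0 counts is limited by 3 counts. All members are named by role. Full values are given for members past 2-fold, those near it and the leading members of each role, and at most 4 genes per pathway list and comparison. edgeR 4.0.16 gave TMM factors, and its tests were not used. The pooling and calling steps were tested on simulated data. Gene positions are from GENCODE on GRCm38. Members overlapped by a counted gene on the opposite strand, such as Pdia6 by Atp6v1c2 (225 and 141 counts), could share reads with it. Negative controls held 275 counts and 0 from members, which allows up to 10909 CPM and so sets no useful limit. The 59 removed wells held the list at 4700 CPM (4171 to 5278). Igkc and Ighm were not found by name in the table and were not used.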

Additional observations from a re-analysis of the deposited data

How the results depend on the processing

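The summed list ratio, the counts of members past 2-fold and the members' ratios were recomputed under 14 alternatives, of which 9 to 14 gave a ratio for each member. The called ratios of Dnajb9 and Kdelr1 kept their direction. Role sums and pathway lists were recomputed only with other totals, and role sums with TMM factors; markers, groups by promoter element, correlations and dispersion have no full set of alternatives. No paired analysis was possible because the results come from no test and well numbers are shared with no second group of sorted cells. For Sftpc against other wells the summed ratio was 0.905 on totals without the 3 genes, 0.825 with TMM factors, 0.914 in the middle column set and 1.10 thinned to equal depth. Its count of higher members was 0 of 28 in the middle set, 2 of 31 thinned and 2 of 32 with totals above 4000. It was 2 of 33 with wells weighing equally and without wells with ciliated markers. Its count of lower members was 2 of 33 with TMM factors, 4 of 22 in the first set, 3 of 28 in the middle and 2 of 27 in the last. It was 1 of 31 thinned and 4 of 32 with totals above 4000. For Scgb3a1 against other wells the summed ratio was 0.999 on totals without the 3 genes, 1.20 in the first set and 0.860 in the last. Its count of higher members was 1 of 31 in the first set and 1 of 30 in the middle, and of lower members 1 of 36 with no count minimum. For Sftpc against Scgb3a1 wells the summed ratio was 0.700 with TMM factors, 0.825, 0.801 and 1.15 in the first, middle and last set. Its count of higher members was 0 of 33 with TMM factors, 2 of 33 with a class limit of 2%, 2 of 36 with no count minimum and 2 of 30 thinned. Its count of lower members was 7 of 33 with TMM factors and 5 of 33 with totals above 4000. It was 7 of 28 in the first set, 3 of 28 in the middle, 2 of 21 in the last and 2 of 30 thinned. It was 0 of 33 with class limits of 0.5% or 2%, wells weighing equally or without the well of most counts. Sets hold fewer wells and 10 to 31 measured members. The share of all genes past 2-fold, given above, was computed only for other totals and TMM factors. Counts under the other alternatives therefore have no such share to set beside them. The other causes were not tested. Dnajb9 stayed past 2-fold against other wells in all 11 alternatives that gave a value (2.48 to 3.91) and against Scgb3a1 wells in 10 of 11 (1.87 to 3.92). The 3 column sets gave no value for Dnajb9, having under 20 counts of it each. In the middle set it was at 74.1 CPM in Sftpc wells, 49.9 in other wells and 39.9 in Scgb3a1 wells, short of 2-fold. Kdelr1 stayed past 2-fold against Scgb3a1 wells in 8 of 13 alternatives (0.306 to 0.565). Leaving out wells at both limits (0 wells) and dropping the count minimum leave every member's ratio as it was. Members under about 20 counts gave no ratio at this depth.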
